A study of Homo sapiens with 20 samples.

Results

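The heavy polysomes of BE(2)-C cells transfected with lncNB1 siRNA-2 were compared with the light polysomes of the same cells, on 6 of the 20 Clariom S arrays of the series (3 of 10 heavy and light pairs). The members were chosen by their titles, 3 arrays of siRNA-2 heavy polysomes against 3 of siRNA-2 light polysomes, and arrays with the same replicate number were paired. BE(2)-C is an established MYCN-amplified human neuroblastoma cell line, and lncNB1 is a long noncoding RNA. Cells of all groups were transfected for 48 h, then given cycloheximide, which holds ribosomes on mRNA, and lysed, and polysomes were separated on a sucrose gradient. Heavy polysomes are mRNAs with many ribosomes and light polysomes are mRNAs with few, and 100 ng of RNA went onto each array. The 14 other arrays came from siRNA-1 cells (3 heavy and 3 light) and control siRNA cells (4 heavy and 4 light), and they entered the fit of the spread and the comparisons of siRNA groups. All groups rest on 1 cell line and transient transfection. The transcript that the siRNAs target was not analysed here.

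An mRNA is read by several ribosomes at a time, and the number it carries depends on how often a ribosome starts, how fast it moves and how long the reading frame is. A short reading frame has room for few ribosomes even when it is read often, so a place in light polysomes is not by itself a sign of weak translation. Messages of ribosomal proteins and many translation factors begin with a run of pyrimidines, the 5′ terminal oligopyrimidine tract, through which growth signals set their translation. Short frames ahead of the main one hold back messages such as that of the stress factor ATF4.

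Values were log2 RMA signals, a scaling that makes the distributions of arrays normalized together alike, and a positive difference is a higher scaled signal in heavy polysomes. It does not compare amounts of RNA between the fractions, and whether both fractions were normalized together is unknown. Array medians were 6.58 to 6.68 over the 20 arrays. In such bulk fractions, fewer cells and less RNA per cell cannot be told apart. Of the 7 adrenergic neuroblastoma markers, 6 were measured, with medians over the 6 siRNA-2 arrays between 8.59 (DBH) and 12.24 (MYCN). The measured markers of Schwann cells (2), blood cells (4), epithelium (4), endothelium (4) and hepatocytes (3) had medians between 3.06 and 7.58, and 0 of them differed between the fractions. The study describes its heavy polysome array experiments as repeated, and the labels do not tie replicates to cultures, so the p-values describe the spread among these arrays. For RT-PCR, results of several neighbouring gradient fractions were pooled as heavy and as light, and whether the arrays used the same fractions is not stated.

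In siRNA-2 cells, 4724 of 21448 transcript clusters differed between heavy and light polysomes (limma on the paired differences, adjusted p under 0.05). Of all clusters, 2460 (11.5%) were higher in heavy polysomes and 2264 (10.6%) were lower. The sign was the same in all 3 pairs for 4722 of the 4724. A call on the mean of these pairs favours 1 sign, and the share over all clusters was not counted. The 3 heavy arrays lay wholly above the 3 light arrays for 2383 of the clusters that were higher, and wholly below them for 2220 of those that were lower, against 19.8% and 18.7% of all clusters with no overlap in either direction. The larger differences ran downwards, since 312 clusters were called at 2-fold or more above light polysomes and 642 at 2-fold or more below. Calls were more frequent among bright clusters, with 2.98% called at a mean signal under 5, 10.9% between 5 and 7, 36.3% between 7 and 9 and 49.5% over 9. The shares called higher and lower were 19.8% and 16.4% between 7 and 9 and 27.7% and 21.8% over 9, where most members of several lists below lay. The count of calls was 2077 without replicate 2, 2174 without replicate 3 and 3633 without replicate 1. Without replicate 2, 868 were higher and 1209 lower, and without replicate 3, 1102 were higher and 1072 lower.

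Among the genes highest in heavy over light polysomes were a tetraspanin, basigin, glycolytic enzymes and an actin-binding coronin. CD9, a tetraspanin of the cell surface, had signals of 10.44, 10.42 and 10.66 in heavy polysomes, against 9.0, 8.44 and 8.60 in light polysomes. All 3 heavy arrays were above all 3 light arrays, and CD9 was 1.83 higher on the log2 scale (SE 0.308, limma adjusted p = 0.00108), or 3.55-fold. BSG, basigin, a surface glycoprotein that escorts lactate transporters to the membrane, had 11.42, 11.38 and 11.72 in heavy polysomes, against 9.95, 9.40 and 9.71 in light polysomes. The fractions did not overlap, and the difference was 1.82 (SE 0.233, adjusted p = 0.000252). The proton pump accessory subunit ATP6AP1 had 9.47, 9.57 and 10.01 in heavy polysomes, against 8.27, 7.63 and 7.89 in light polysomes, a difference of 1.75 (SE 0.284). The next in order were the glycolytic enzymes PGAM1 (1.73) and PGK1 (1.69), the respiratory complex III core subunit UQCRC1 (1.65), the actin-binding coronin CORO1C (1.64) and the endoplasmic reticulum disulfide isomerase PDIA3 (1.63). The membrane-binding annexin ANXA5 (1.63), the heparan sulfate proteoglycan SDC1 (1.63), the electron transfer subunit ETFB (1.60), the dipeptidase PEPD (1.59), ZZEF1 (1.57), the carbonyl reductase CBR1 (1.55) and the dynein regulator NUDC (1.55) completed the 15. Each of the 15 kept its call in the 11 other settings tried, not counting the required fold of 1.5. The limma adjusted p was at most 0.0312 (PGK1 without replicate 2).

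**Figure D1:**
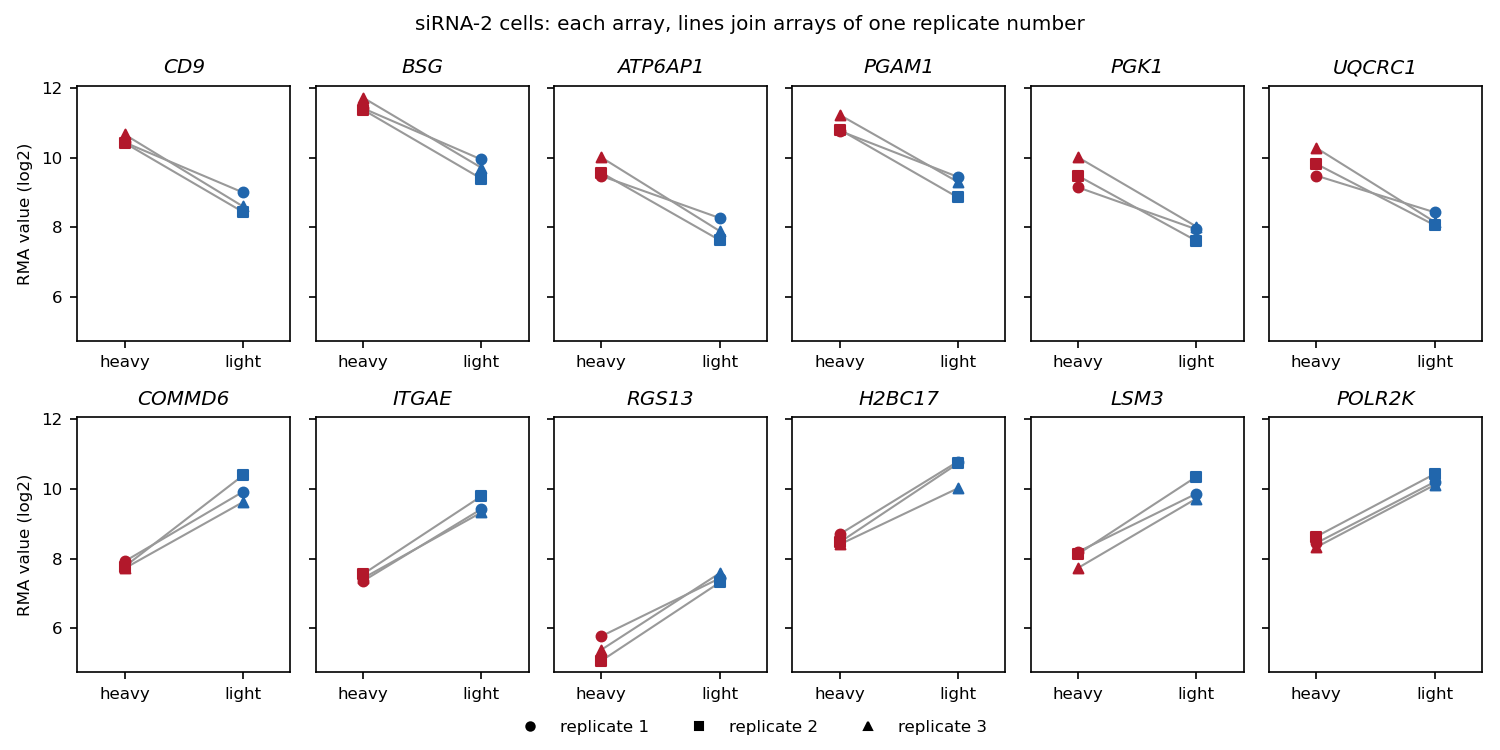
RMA signal (log2, vertical axis) of 12 genes on each siRNA-2 array, with heavy polysomes in red on the left and light polysomes in blue on the right, and a line joining arrays of 1 replicate number. The 6 genes of the upper row were higher in heavy polysomes and the 6 of the lower row lower, and in none of them did the 3 heavy arrays overlap the 3 light arrays.

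The genes lowest in heavy over light polysomes included subunits of protein complexes and a noncoding RNA. COMMD6, a member of a family of copper and trafficking regulators, had signals of 7.92, 7.77 and 7.72 in heavy polysomes, against 9.92, 10.39 and 9.63 in light polysomes. All heavy arrays were far below all light arrays, and the fall was 2.17 on the log2 scale (difference -2.17, SE 0.227, limma adjusted p = 0.000189), or 4.51-fold. The integrin subunit ITGAE had 7.36, 7.56 and 7.44 in heavy polysomes, against 9.43, 9.79 and 9.33 in light polysomes (difference -2.06, SE 0.238). RGS13, an inhibitor of G-protein signalling, had 5.78, 5.07 and 5.39 in heavy polysomes, against 7.44, 7.32 and 7.59 in light polysomes (difference -2.04, SE 0.292). The fractions were apart for both. The histone H2BC17 (-1.99), the RNA-binding ring subunit LSM3 (-1.96), the noncoding RNA THUMPD3-AS1 (-1.88), the complex I assembly factor TMEM126A (-1.86), the polycomb subunit PCGF5 (-1.86) and the myosin light chain MYL6B (-1.85) followed. The list of 15 ended with the mitochondrial import co-chaperone DNAJC19 (-1.84), the autophagy conjugation protein ATG12 (-1.83), the diphthamide synthesis protein DPH3 (-1.83), the organelle biogenesis subunit BLOC1S2 (-1.82), TMA7 (-1.82) and the ribosome biogenesis factor RBIS (-1.82). These 15 also kept their calls in the 11 other settings, with adjusted p of at most 0.0129. Probes of histones and other families with near-identical copies cannot tell the copies apart.

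Genes of central metabolism were mostly higher in heavy polysomes. Of 17 measured glycolytic enzymes, 14 were higher in heavy polysomes (82.4%), 0 were lower and PFKP, PFKM and ENO2 did not pass. The median difference was 0.79 for the list. Its median signal was 8.98, and of all clusters between 7 and 9, 19.8% were higher. PGAM1, phosphoglycerate mutase, had 10.77, 10.80 and 11.23 in heavy polysomes, against 9.44, 8.85 and 9.30 in light polysomes (difference 1.73, SE 0.273, limma adjusted p = 0.000758). PGK1, which makes the first ATP of the pathway, had 9.15, 9.48 and 10.01 in heavy polysomes, against 7.94, 7.61 and 8.02 in light polysomes (difference 1.69, SE 0.322, adjusted p = 0.00212). In both genes replicate 1 had the smallest gap between the fractions. HK1, hexokinase, was 1.30 higher (SE 0.235) and ALDOA, aldolase, 0.97 higher (SE 0.186), and GAPDH had the smallest difference among those called (0.49, SE 0.163, adjusted p = 0.0436). Without replicate 2, 7 glycolytic genes were called, and without replicate 3, 6 were. Of 13 tricarboxylic acid cycle enzymes, a list added after values were seen, 10 were called higher (76.9%). The median signal of the list was 9.12, and of all clusters over 9, 27.7% were higher. Among the 10 were IDH3G (1.23), IDH2 (1.13) and MDH2 (1.03), while CS, citrate synthase, had 0.16 (SE 0.182, adjusted p = 0.636). Without replicate 3, 4 of these were called, and without replicate 2, 6 were.

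Messages of the proteasome, which degrades ubiquitinated proteins, were mostly higher in heavy polysomes. Among its 31 measured subunits the median difference was 0.78, with 26 higher in heavy polysomes (83.9%), 0 lower and 5 not passing. Their median signal was 9.62, and of all clusters over 9, 27.7% were higher. PSMD3, a lid subunit of the regulatory particle, had 10.70, 10.78 and 11.08 in heavy polysomes, against 9.58, 9.25 and 9.47 in light polysomes (2.67-fold, limma adjusted p = 0.000716). PSMD10, an assembly chaperone of that particle, had 9.30, 9.52 and 9.35 in heavy polysomes, against 8.13, 7.85 and 8.36 in light polysomes (difference 1.28, SE 0.210). The fractions were apart for both. PSMA3, a subunit of the outer core ring, was 1.07 higher, and PSMD8 of the lid 1.04 higher. The 5 that did not pass were PSMD6 (0.52), PSMC6 (0.31), PSMB2 (0.07), PSMA1 (-0.03) and PSMD9 (-0.56, adjusted p = 0.0656). The count of proteasome calls was 16 without replicate 2 and 15 without replicate 3, all higher in heavy polysomes.

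Chaperones of the endoplasmic reticulum were also mostly higher in heavy polysomes, with 14 of 21 higher (66.7%), 2 lower (9.52%) and 5 not passing (median 0.78). Their median signal was 9.63, and of all clusters over 9, 27.7% were higher and 21.8% lower. HSPA5, the main Hsp70 of the endoplasmic reticulum, had 10.44, 10.57 and 10.97 in heavy polysomes, against 9.63, 9.51 and 9.47 in light polysomes (difference 1.12, SE 0.177, limma adjusted p = 0.000758). The disulfide isomerases PDIA3 (1.63) and PDIA6 (1.24), the co-chaperone DNAJB11 (0.87) and HYOU1 (0.83) were higher too. The 2 lower members were SEC61B, a small subunit of the translocation channel, with 9.29, 9.18 and 8.95 in heavy polysomes, against 10.42, 10.42 and 10.32 in light polysomes (difference -1.25, SE 0.229, adjusted p = 0.00172), and the disulfide reductase DNAJC10 (-0.70). SEC61A1, the large subunit of the same channel, was 0.78 higher, so subunits of 1 channel lay on opposite sides. Of 17 cholesterol synthesis genes, 9 were higher (52.9%), 0 lower and 8 did not pass (median 0.42). Their median signal was 8.7, and of all clusters between 7 and 9, 19.8% were higher. The list was led by DHCR7 (1.15, SE 0.195) and FDPS (0.77, SE 0.148). NSDHL (0.90) and HMGCS1 (0.80) lost their calls without replicate 2 or 3, when 2 members passed, and 5 passed without replicate 1. Of 17 aminoacyl-tRNA synthetases and partners, which charge transfer RNAs, 8 were higher (47.1%) and 0 lower (median 0.37), with YARS1 at 0.96 and HARS1 at 0.84. Their median signal was 9.73, and of all clusters over 9, 27.7% were higher. Without replicate 2, 3 of the synthetases and partners passed, and without replicate 3, 4 did.

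Genes of very large proteins were higher or did not pass, with 1 exception among the 3 lists. Of 34 cytoskeletal giants, 16 were higher (47.1%) and 0 lower (median 0.42). Among 17 giant ubiquitin ligases and hydrolases, 10 were higher (58.8%) and 0 lower (median 0.56). In the list of 34 large chromatin regulators, 18 were higher (52.9%) and 1 lower (median 0.45). The median signals of the 3 lists were between 7 and 9, where 19.8% of all clusters were higher and 16.4% lower. KMT2D, a histone H3 methyltransferase, had 8.76, 9.22 and 9.19 in heavy polysomes, against 7.55, 7.74 and 7.58 in light polysomes (difference 1.43, SE 0.195, limma adjusted p = 0.000366). DYNC1H1, the dynein heavy chain, had 8.80, 9.18 and 9.17 in heavy polysomes, against 7.70, 8.20 and 8.05 in light polysomes (difference 1.07, SE 0.166). HUWE1, a ubiquitin ligase, had 9.51, 9.74 and 9.72 in heavy polysomes, against 8.71, 8.54 and 8.69 in light polysomes (difference 1.01, SE 0.143). In each of these genes the 3 heavy arrays were above the 3 light arrays. The axonal motor KIF1A (1.08), RNF213 (0.96), USP9X (0.87) and ARID1A (0.89) were higher as well, and the lower member was PHF3 (-0.54). Across 17709 clusters with 1 symbol, the rank correlation of the difference with the genomic span of the gene was 0.102, a description across genes, which are not independent, and protein length was not analysed here. Without replicate 2 the calls in the 3 lists were 6, 8 and 6 higher, and without replicate 3 they were 7, 7 and 11 higher.

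Cytosolic ribosomal proteins were lower in heavy polysomes or did not pass. Of 27 measured large-subunit genes, 17 were lower (63%), 0 higher and 10 did not pass (median -0.48). Among 21 small-subunit genes, 13 were lower (61.9%), 0 higher and 8 did not pass (median -0.51). Both lists had median signals over 9, where 21.8% of all clusters were lower. RPL29 had 9.03, 8.82 and 8.77 in heavy polysomes, against 10.32, 10.43 and 10.02 in light polysomes (difference -1.38, SE 0.191, limma adjusted p = 0.000387). RPS29 had 10.09, 9.98 and 9.74 in heavy polysomes, against 11.34, 11.49 and 11.45 in light polysomes (difference -1.49, SE 0.226). RPS12 had 10.55, 10.51 and 10.24 in heavy polysomes, against 11.78, 11.84 and 11.60 in light polysomes (difference -1.30, SE 0.167). The arrays of the fractions were apart in all 3 genes. RPS27L, a diverged copy of RPS27, had the lowest value of the small-subunit list (-1.65). In the large subunit RPL41 (-1.15), whose protein is the shortest of the ribosome, RPL31 (-0.93) and RPLP1 (-0.91) were lower as well. RPS4X, in contrast, had 12.05, 12.03 and 12.10 in heavy polysomes, against 12.13, 12.17 and 11.97 in light polysomes, and RPL24 had 11.28, 11.46 and 11.11 in heavy polysomes, against 11.31, 11.25 and 11.22 in light polysomes. The fractions overlapped for both (RPS4X -0.03, adjusted p = 0.909, and RPL24 0.03, adjusted p = 0.927, named after their values were seen). The calls among ribosomal proteins were 7 large-subunit and 7 small-subunit genes without replicate 2, and 6 and 6 without replicate 3, and 8 small-subunit genes were called without replicate 1, all lower. Messages of these genes are abundant and have many pseudogenes, whose transcripts the probes may also bind.

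The bases around the start sites of some of these genes are shown because the terminal oligopyrimidine tract lies at the 5′ end of the message. Each window runs from 10 bases before the RefSeq start (GRCh38.p14) to 20 bases from it on, 5′ to 3′ on the gene's strand, and capitals mark the longest run of C and T.
RPL29 (lower in heavy): cagCCCCTTTCTCTTCCggttctaggcgct
RPL41 (lower in heavy): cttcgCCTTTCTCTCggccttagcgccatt
RPS12 (lower in heavy): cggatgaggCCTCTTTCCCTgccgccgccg
RPS29 (lower in heavy): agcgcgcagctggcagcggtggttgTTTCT
RPL24 (not called): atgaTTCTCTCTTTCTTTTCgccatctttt
RPS10 (not called): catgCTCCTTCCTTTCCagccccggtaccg
RPS4X (not called): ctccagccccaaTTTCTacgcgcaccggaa
PSMD3 (higher in heavy): ggcgTTTCCCagaaggcccagcgccgggaa
These windows lie at chr3:51995876-51995905 (minus strand) for RPL29, chr12:56116623-56116652 (plus) for RPL41, chr6:132814559-132814588 (plus) for RPS12, chr14:49598691-49598720 (minus) for RPS29, chr3:101686699-101686728 (minus) for RPL24, chr6:34426050-34426079 (minus) for RPS10, chrX:72277229-72277258 (minus) for RPS4X and chr17:39980797-39980826 (plus) for PSMD3. The longest run was 14, 10 and 11 bases in RPL29, RPL41 and RPS12, and 16 and 13 in the uncalled RPL24 and RPS10. It was 5 in the uncalled RPS4X and 6 in PSMD3. In RPS29 the run reached the end of the window, so its full length is not seen. The genes shown were picked by hand, and a link between runs and calls was not tested.

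Of the 48 measured ribosomal protein genes, 44 had a window, and 38 of these (86.4%) held a run of at least 8 bases that were each C or T, against 12.6% of the 27305 promoters in the table. The run was present in 22 of 27 ribosomal protein genes called lower in heavy polysomes (81.5%) and in 16 of 17 that were not called (94.1%). Among all named genes with a window it was present in 228 of 1599 called lower (14.3%) and in 219 of 1829 called higher (12%). The 8 letters CTCTTTCC, searched on both strands, were in 5 of the 44 ribosomal protein windows (11.4%) and in 0.341% of all windows. A run is a description of these windows, and the start that RefSeq gives need not be the one used in these cells. Runs that reach the end of a window may be longer than counted.

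Other messages of the translation machinery were called in both directions. Of 33 initiation factors, 13 were higher in heavy polysomes (39.4%), 7 lower (21.2%) and 13 did not pass (median 0.35). Of all clusters with a signal over 9, 27.7% were higher and 21.8% lower. EIF3I, a scaffold subunit of the eIF3 complex, had 9.25, 9.37 and 9.80 in heavy polysomes, against 8.05, 7.81 and 7.96 in light polysomes (difference 1.53, SE 0.269, limma adjusted p = 0.00135). EIF4E, which binds the cap, had 9.74, 9.50 and 9.46 in heavy polysomes, against 10.60, 10.62 and 10.62 in light polysomes (difference -1.05, SE 0.193, adjusted p = 0.00172). The light arrays of EIF4E were nearly equal and all above the heavy ones. EIF6 (0.87) was higher, and EIF1B (-1.02), which helps choose the start codon, was lower. Without replicate 2, 2 were higher and 5 lower, and without replicate 3, 4 were higher and 5 lower. Of 13 elongation factors and other messages with pyrimidine starts, VIM (0.84) and BTF3 (0.42) were higher, NACA (-0.70), EIF3L (-0.64) and EIF3F (-0.41) were lower, and 8 did not pass, among them EEF1A1 (-0.11, adjusted p = 0.578). VIM and BTF3 lost their calls without replicate 2 or 3, and EIF3L without replicate 1 or 2. The lower calls of that list were 1 without replicate 1, 1 without replicate 2 and 2 without replicate 3.

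Subunits of the mitochondrial complexes, the Sm and LSm proteins and the RNA polymerases had calls in both directions, as had bright clusters in general. Of all clusters with a signal over 9, 27.7% were higher and 21.8% lower. The shares were 26.4% and 32.1% for the respiratory chain. For ATP synthase they were 28.6% and 21.4%, close to those of all such clusters. Of 53 respiratory chain subunits, 14 were higher in heavy polysomes, 17 lower and 22 did not pass (median -0.01). UQCRC1, the core subunit of complex III, had 9.48, 9.82 and 10.28 in heavy polysomes, against 8.43, 8.06 and 8.15 in light polysomes (difference 1.65, SE 0.268). UQCR10, a small accessory subunit of the same complex, had 9.28, 9.38 and 9.16 in heavy polysomes, against 10.53, 10.54 and 10.56 in light polysomes (difference -1.27, SE 0.189, limma adjusted p = 0.000568). The complex III messages thus lay 1.65 above and 1.27 below, with no overlap of the arrays in either. Within complex I the accessory subunits NDUFB3 (-1.69) and NDUFC1 (-1.05) were lower. In ATP synthase, the catalytic core subunits ATP5F1A (0.99) and ATP5F1B (0.79) were higher and the membrane-part subunits ATP5ME (-1.53) and ATP5MF (-1.18) lower, with 4 of 14 higher, 3 lower and 7 not passing. The calls of ATP5F1A and ATP5F1B were lost without replicate 3, when 0 of the list were higher and 2 lower, and without replicate 1 or 2, 2 were higher and 2 lower. Without replicate 2 or 3 the respiratory chain had 5 higher and 10 lower, or 10 higher and 8 lower.

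Of 74 mitochondrial ribosomal proteins, 24 were higher (32.4%), 12 lower (16.2%) and 38 did not pass (median 0.21). Their median signal was 8.73, and of all clusters between 7 and 9, 19.8% were higher and 16.4% lower. MRPL16 was 1.27 higher (SE 0.199), while MRPL42 (-1.28, SE 0.167), MRPL51 (-1.25, SE 0.171) and MRPL11 (-1.12) were lower. Of 21 Sm and LSm proteins, which form rings on the RNAs of splicing and decay, 10 were lower, 5 higher and 6 did not pass (median -0.50). The shares were 47.6% lower and 23.8% higher, against 21.8% and 27.7% of all clusters with a signal over 9. LSM3 had 8.20, 8.13 and 7.73 in heavy polysomes, against 9.87, 10.35 and 9.73 in light polysomes, and SNRPG had 8.03, 8.13 and 7.82 in heavy polysomes, against 9.53, 9.64 and 9.71 in light polysomes. The light arrays were higher in every pair for both. SNRPB, the largest of the Sm ring proteins, was 1.39 higher in heavy polysomes (SE 0.238, limma adjusted p = 0.00119), a gene named after its value was seen. Of 29 RNA polymerase subunits, 7 were higher (24.1%), 8 lower (27.6%) and 14 did not pass, against 19.8% and 16.4% of all clusters between 7 and 9. POLR2A, the largest subunit of RNA polymerase II, had 9.11, 9.28 and 9.87 in heavy polysomes, against 8.30, 8.21 and 8.53 in light polysomes (difference 1.07, SE 0.176). POLR2K, a small subunit shared by the 3 polymerases, had 8.45, 8.64 and 8.33 in heavy polysomes, against 10.21, 10.43 and 10.12 in light polysomes (difference -1.78, SE 0.190).  Without replicate 2 the mitochondrial ribosomal proteins had 7 higher and 8 lower, and without replicate 3, 14 higher and 5 lower. The higher calls without replicate 2 were 2 for the Sm and LSm proteins and 2 for the polymerases, and without replicate 3, 4 and 4.

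**Figure D2:**
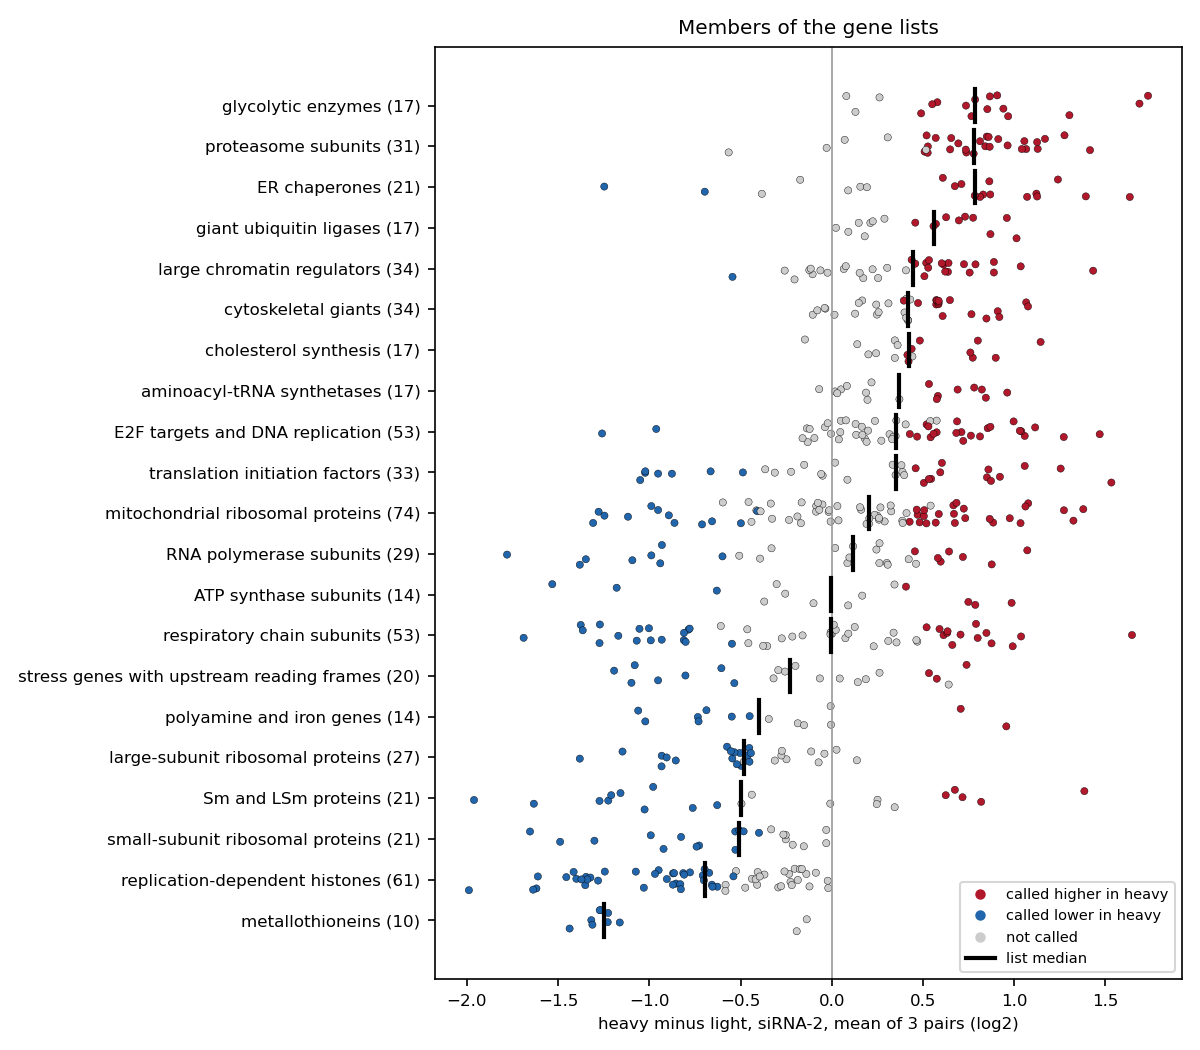
Heavy minus light difference (log2, horizontal axis) of each member of 21 gene lists in siRNA-2 cells, with members called higher in heavy polysomes in red, called lower in blue and not called in grey, black bars at list medians and the number measured in parentheses. Glycolytic enzymes and proteasome subunits (medians 0.79 and 0.78) have no lower call, histones and metallothioneins (-0.70 and -1.25) have no higher call, and the mitochondrial and polymerase subunits spread to both sides.

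Replication-dependent histones, whose messages end in a stem-loop in place of a poly(A) tail, were lower in heavy polysomes. Of 61 measured, 36 were lower (59%), 0 higher and 25 did not pass (median -0.70). Their median signal was 9.82, and of all clusters over 9, 21.8% were lower. H2BC6 had 8.33, 8.26 and 8.29 in heavy polysomes, against 9.94, 9.71 and 9.29 in light polysomes (difference -1.35, SE 0.158, limma adjusted p = 0.000211). H2BC8 had 9.87, 10.01 and 9.90 in heavy polysomes, against 11.20, 11.46 and 11.14 in light polysomes (difference -1.34, SE 0.161). H2BC5 (-1.32) and H2BC13 (-1.46) were lower too, and in all 4 the heavy arrays were below the light ones. Without replicate 2, 22 histones passed, and without replicate 3, 21 did, all lower. The linker histone H1-10, whose gene is not of the replication-dependent kind and whose protein is among those lncNB1 bound, lay on the other side. Its signals were 8.41, 8.65 and 8.12 in heavy polysomes, against 7.70, 7.51 and 7.46 in light polysomes (difference 0.83, SE 0.151, adjusted p = 0.00159).

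Metallothioneins, small proteins that bind zinc and copper, had the lowest median of the lists (-1.25), with 8 of 10 lower (80%) and 0 higher. Their median signal was 9.43, and of all clusters over 9, 21.8% were lower. MT1F had 8.70, 9.19 and 8.95 in heavy polysomes, against 10.08, 10.67 and 10.40 in light polysomes (difference -1.44, SE 0.172, limma adjusted p = 0.000211). MT1B had 10.27, 10.59 and 10.34 in heavy polysomes, against 11.53, 12.01 and 11.63 in light polysomes (difference -1.32, SE 0.148). The heavy arrays were below the light ones in every pair, and the count of calls was 8 without replicate 1, 2 or 3. MT1M (-1.23) and MT1E (-1.27) were close to them, and the probes of this family of near-identical copies may read each other's messages. MT3 (-0.14) and MT4 (-0.19) did not pass.

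Stress genes known for reading frames upstream of the main one were more often lower than higher. Of 20 measured, 7 were lower (35%), 3 higher (15%) and 10 did not pass (median -0.23). Their median signal was 9.23, and of all clusters over 9, 21.8% were lower and 27.7% higher. ATF4 had 10.20, 10.26 and 9.92 in heavy polysomes, against 11.24, 11.49 and 11.23 in light polysomes (difference -1.19, SE 0.176, limma adjusted p = 0.00055). DDIT3, the stress factor CHOP, had 6.56, 6.61 and 6.61 in heavy polysomes, against 7.65, 7.79 and 7.60 in light polysomes (difference -1.08, SE 0.178). Heavy arrays were below light arrays for both, while the arginine transporter SLC7A1 was 0.74 higher (SE 0.124). MDM2, the ligase of p53, was 0.95 lower (difference -0.95, SE 0.142). Without replicate 2 or 3 the list had 4 lower and 1 higher. Among 20 p53 targets, of which MDM2 is 1, 4 were lower (20%), 1 higher (5%) and 15 did not pass. At a median signal of 7.31, the share lower was near the 16.4% of all clusters between 7 and 9, of which 19.8% were higher. CCNG1 (-0.69) was lower, AEN (0.62) was higher, with its call lost without replicate 2, and CDKN1A (-0.80) lost its call when any 1 of the pairs was left out. Leaving out replicate 1, 2 or 3 left 2 p53 targets lower.

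Among 14 polyamine and iron genes, 7 were lower (50%), 2 higher (14.3%) and 5 did not pass (median -0.40). The list had a median signal of 8.65, and of all clusters between 7 and 9, 16.4% were lower and 19.8% higher. The iron regulatory protein ACO1 (0.96, SE 0.156) and the transferrin receptor TFRC (0.71, SE 0.134) were higher. The polyamine acetyltransferase SAT1 had 6.78, 6.58 and 6.47 in heavy polysomes, against 7.64, 7.88 and 7.50 in light polysomes (difference -1.06, SE 0.176, limma adjusted p = 0.00102), and AMD1, which makes the propylamine donor, had -0.73 with a call lost without replicate 3. Without replicate 1, 4 members were lower, without replicate 2, 3 were, and without replicate 3, 1 was. Of 24 selenoproteins, 4 were lower (16.7%), 1 higher (4.17%) and 19 did not pass. Their median signal was 7.37, and the share lower was close to the 16.4% of all clusters between 7 and 9, of which 19.8% were higher. GPX1, a glutathione peroxidase, had 8.75, 8.94 and 8.72 in heavy polysomes, against 10.26, 10.33 and 10.32 in light polysomes (difference -1.50, SE 0.187, adjusted p = 0.000223). SELENOW (-1.77), GPX4 (-1.21) and SELENOF (-1.10, lost without replicate 3) were the other lower ones, and TXNRD2 (0.89) was the higher one, with 0 higher without replicate 2 or 3.

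Cell cycle genes were more often higher in heavy polysomes than lower, with E2F1 among the exceptions. Of 53 E2F targets and replication genes, 22 were higher (41.5%), 2 lower (3.77%) and 29 did not pass (median 0.35). Their median signal was 8.46, and of all clusters between 7 and 9, 19.8% were higher and 16.4% lower. FEN1, the flap endonuclease of lagging strands, had 9.44, 9.67 and 9.95 in heavy polysomes, against 8.40, 8.03 and 8.22 in light polysomes (difference 1.47, SE 0.260, limma adjusted p = 0.00141), and TK1, thymidine kinase, was 1.27 higher (SE 0.214). E2F1 itself, a transcription factor of S-phase entry, had 8.32, 8.14 and 8.05 in heavy polysomes, against 9.20, 9.13 and 9.06 in light polysomes. The arrays of the fractions did not overlap, and E2F1 was 1.95-fold lower in heavy polysomes (difference -0.96, SE 0.181, adjusted p = 0.00195), a call kept in the 11 other settings. The other lower member was RPA3 (-1.26), the smallest subunit of the single-strand binding complex. Without replicate 2 or 3 the list had 10 or 9 higher and 2 lower. Of 52 G2/M genes, 18 were higher (34.6%), 5 lower (9.62%) and 29 did not pass (median 0.27). At their median signal of 9.09, the share higher was near the 27.7% of all clusters over 9, of which 21.8% were lower. The phosphatase CDC25A (1.08) and cyclin B1, CCNB1 (0.94), were higher, and survivin, BIRC5 (-0.97), and the mitotic conjugating enzyme UBE2C (-0.87) were lower. Without replicate 2 the G2/M list had 2 higher and 4 lower, and without replicate 3, 3 higher and 2 lower.

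Of 27 adrenergic neuroblastoma genes, 8 were higher (29.6%), 1 was lower and 18 did not pass (median 0.28). The median signal of the list was 9.62, and the share called higher was close to the 27.7% of all clusters with a signal over 9. DBH, which makes noradrenaline, had 9.22, 8.84 and 9.24 in heavy polysomes, against 8.33, 7.99 and 7.97 in light polysomes (difference 1.00, SE 0.165, limma adjusted p = 0.000962). CHGA, chromogranin A of secretory granules, had 10.50, 10.54 and 11.22 in heavy polysomes, against 9.75, 9.44 and 9.68 in light polysomes (difference 1.13, SE 0.210). SATB1 was lower (-0.92), and PHOX2A (0.80) lost its call without replicate 2. MYCN had 12.30, 12.37 and 12.36 in heavy polysomes, against 12.18, 12.10 and 12.13 in light polysomes. The heavy arrays were above the light ones by little (0.20, SE 0.119, 95% confidence interval -0.05 to 0.46), and the difference did not pass (adjusted p = 0.272). Without replicate 2, 2 of the list were higher, and without replicate 3, 4 were.

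In the lists of giant receptors, matrix proteins, and plexins and semaphorins, genes were higher where they were called, apart from 1 plexin. The integrin subunit ITGAE, outside these lists, was lower (-2.06). Of 36 giant cell-surface receptors, 11 were higher (30.6%) and 0 lower, and of 33 matrix proteins 8 were higher (24.2%) and 0 lower. Of 28 plexins and semaphorins 10 were higher (35.7%) and 1 lower. The median signals of these lists were between 5 and 7, where 4.5% of all clusters were higher and 6.41% lower. That share is no background for their brighter members, since of all clusters over 9, 27.7% were higher and 21.8% lower. The median differences of the 3 lists were 0.18, 0.06 and 0.11, and 25, 25 and 17 members did not pass. The netrin receptor UNC5B had 10.09, 10.30 and 10.55 in heavy polysomes, against 9.12, 9.11 and 9.20 in light polysomes (difference 1.17, SE 0.151, limma adjusted p = 0.000265). The cadherin DCHS1 (1.29), IGF2R (1.06), the laminin chain LAMC1 (1.07), the latent TGF-beta binding protein LTBP1 (0.84) and the guidance receptor PLXNA1 (0.79) were higher. PLXNC1 had 4.88, 4.94 and 4.87 in heavy polysomes, against 6.27, 5.89 and 6.12 in light polysomes (difference -1.20, SE 0.225). Without replicate 1 the plexins and semaphorins had 6 higher, without replicate 2, 2, and without replicate 3, 4. The matrix proteins had 5 higher without replicate 2 and 4 without replicate 3. Of 29 tetraspanins, a list added after values were seen, 8 were higher (27.6%), among them CD9 (1.83) and CD81 (1.37), and 1 was lower. Their median signal was 7.18, and of all clusters between 7 and 9, 19.8% were higher and 16.4% lower.

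Zinc finger genes were more often lower in heavy polysomes than higher. Of 448 genes with ZNF symbols, 123 (27.5%) were lower and 13 (2.9%) higher, against 10.6% and 11.5% of all clusters, and the median was -0.23. ZNF32 had 5.84, 5.83 and 5.66 in heavy polysomes, against 7.41, 7.57 and 7.15 in light polysomes (difference -1.60, SE 0.177, limma adjusted p = 0.000211), and ZNF300 (-1.35), ZNF774 (-0.96) and ZNF664 (-0.91) were lower as well. The lower count was 51 without replicate 2, 35 without replicate 3 and 85 without replicate 1, and the higher count was 3, 4 and 7. Long noncoding RNAs were also more often lower (a list added after values were seen), with 42 of 306 (13.7%) lower and 4 (1.31%) higher. Their median signal was 5.39, and of all clusters between 5 and 7, 6.41% were lower and 4.5% higher. THUMPD3-AS1 (-1.88), ROR1-AS1 (-1.73) and CHASERR (-1.64) were among the lower noncoding RNAs. Without replicate 2, 20 were lower and 0 higher, and without replicate 3, 24 and 0.

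Olfactory receptors and keratin-associated proteins had low signals, with list medians of 3.34 and 5.14. Of all clusters, 2.98% were called under 5 and 10.9% between 5 and 7, so these lists are no background for brighter ones. Of 348 olfactory receptors, 2 were called higher and 3 lower, and of 85 keratin-associated proteins 1 was called higher and 0 lower, with medians of -0.02 and 0.00. Of the 6 calls, those of OR10AD1 (-0.65), OR6C68 (-0.40), OR10P1 (0.39), OR51A4 (0.45) and KRTAP1-3 (0.43) were lost in 3 to 5 of the other settings each. OR8K1 (-0.43), named after its value was seen, was the remaining one.

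Whether heavy against light differed between siRNA-2 and control cells was tested on the differences of the transfections. Of 21448 clusters, 0 (0%) passed (limma), with 542 at an unadjusted p under 0.05 (2.53%). With the replicate number as a block 0 passed and 1205 had an unadjusted p under 0.05, and 0 passed in each of the other settings tried. Against siRNA-1, 0 (0%) passed, with 1651 at an unadjusted p under 0.05 (7.7%), and 3 passed with array weights. The mean differences of siRNA-2 and control cells had a Pearson correlation of 0.9 over the 21448 clusters, with a slope of 0.906 (control on siRNA-2), a description across genes, which are not independent replicates. For siRNA-2 and siRNA-1 it was 0.821, with a slope of 0.896.

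**Figure D3:**
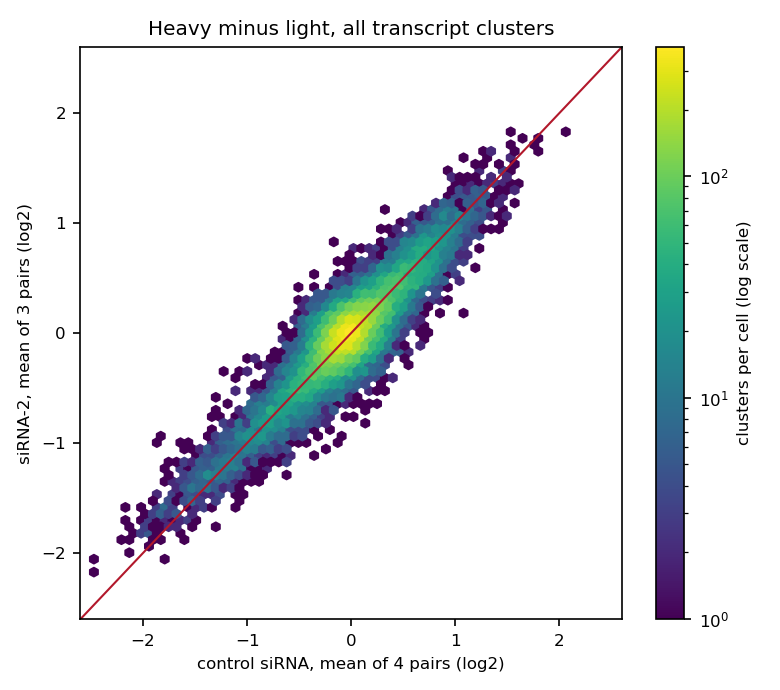
Mean heavy minus light difference of each of 21448 transcript clusters (log2) in siRNA-2 cells (vertical axis, 3 pairs) and in control siRNA cells (horizontal axis, 4 pairs), coloured by the number of clusters per cell on a log scale, with the line of equality in red. The clusters lie along the line (Pearson correlation 0.9).

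E2F1 showed heavy minus light differences of -0.88, -0.99 and -1.02 in siRNA-2 cells, against -0.43, -0.87, -0.89 and -1.13 in control cells. By replicate number the siRNA-2 value was below that of control in all 3 pairs, while control replicate 4, which has no siRNA-2 partner, was the lowest of both groups. The means differed by -0.13 (SE 0.239, 95% confidence interval -0.64 to 0.38, limma adjusted p = 1), and with the replicate number as a block by -0.26 (SE 0.165, adjusted p = 0.9). In siRNA-1 cells the values were -0.41, -1.20 and -1.49, which also enclosed those of siRNA-2. MYCN had 0.12, 0.27 and 0.22 in siRNA-2 cells, against -0.04, -0.08, 0.17 and 0.01 in control cells, with overlap, and a difference of 0.19 (SE 0.158, confidence interval -0.15 to 0.52). DEPDC1B, a GTPase-activating protein upstream of ERK, had 0.05, -0.16 and -0.49 in siRNA-2 cells, against -0.21, -0.03, -0.64 and -0.17 in control cells. DEPDC1B did not pass in siRNA-2 cells alone (-0.20, SE 0.146, adjusted p = 0.407). RPL35, a ribosomal protein that binds lncNB1, had 11.67, 11.96 and 11.51 in heavy polysomes of siRNA-2 cells, against 11.76, 11.81 and 11.79 in light polysomes. The fractions overlapped (-0.07, SE 0.140, adjusted p = 0.794), and the difference from control cells was 0.07 (confidence interval -0.32 to 0.47). Of the 11 measured genes named in the study, 6 were higher in heavy polysomes (54.5%) and 1, E2F1, lower. Their median signal was 8.86, and of all clusters between 7 and 9, 19.8% were higher and 16.4% lower. ILF2, an RNA-binding protein that lncNB1 bound, had 11.82, 11.89 and 12.32 in heavy polysomes, against 11.05, 10.80 and 11.02 in light polysomes (difference 1.06, SE 0.198), and H1-10 was higher as given above. ACTB (0.63), TUBB2A (0.71) and TUBB2B (0.70) lost their calls without replicate 2 or 3, and MAPK3 (0.42) when any 1 of the pairs was left out. Without replicate 2 or 3, 2 of the 11 were higher.

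**Figure D4:**
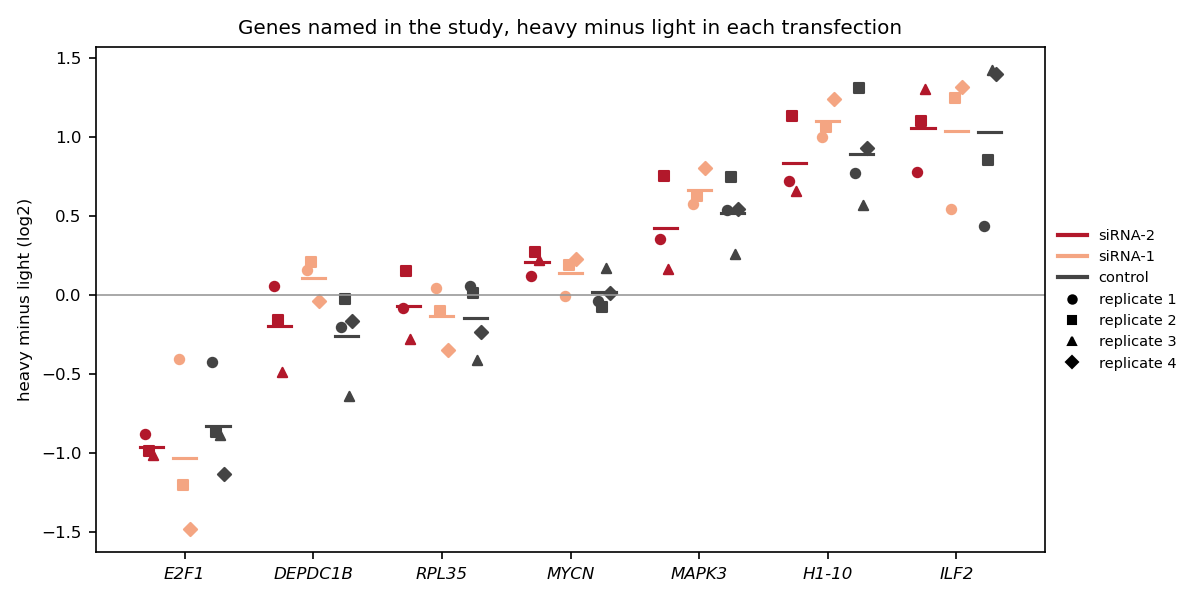
Heavy minus light difference (log2, vertical axis) of 7 genes named in the study in each of the 10 transfections, with siRNA-2 in red, siRNA-1 in orange and control in dark grey, replicate numbers by marker and bars at group means. The siRNA-2 points of E2F1 (-0.88, -0.99 and -1.02) are each below the control point of the same replicate number (-0.43, -0.87 and -0.89), and control replicate 4 is lower still (-1.13).

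The 3 siRNA-2 pairs differed in how far the fractions were apart. The standard deviation of the heavy minus light difference over all clusters was 0.398, 0.522 and 0.532 for replicates 1, 2 and 3, and 543, 1418 and 1754 clusters differed 2-fold or more. The slope of each pair on the mean of the other siRNA-2 pairs was 0.639, 0.926 and 0.954, so replicate 1 had the smallest gap. Control and siRNA-1 replicate 1 had low slopes as well (0.49 and 0.516). Left out in every group, number 1 changed the count to 4493. The pairs of siRNA-2 correlated with each other at 0.722 (replicates 1 and 2), 0.721 (1 and 3) and 0.705 (2 and 3), across genes, while siRNA-2 replicate 3 and control replicate 3 reached 0.849.

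The mitochondrial lists showed this by replicate number. The median of the respiratory chain subunits was -0.05, 0.33 and -0.42 in siRNA-2 replicates 1, 2 and 3, against 0.07, 0.33, -0.67 and -0.07 in control replicates 1 to 4. In siRNA-1 cells it was 0.19, 0.20 and -0.25 in replicates 1, 2 and 4. Replicate 3 was the lowest and replicate 2 the highest in siRNA-2 and control cells. ATP synthase subunits had medians of 0.06, 0.19 and -0.24 in siRNA-2 cells, against 0.18, 0.35, -0.36 and 0.10 in control cells. Glycolytic enzymes (0.58, 0.85 and 1.02), proteasome subunits (0.56, 0.96 and 0.78), large-subunit ribosomal proteins (-0.40, -0.50 and -0.58) and histones (-0.65, -0.55 and -0.90) kept their sign in the 3 siRNA-2 pairs. What a replicate number stands for is not given in the labels, and the part of a shared day or gradient in these values was not tested.

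**Figure D5:**
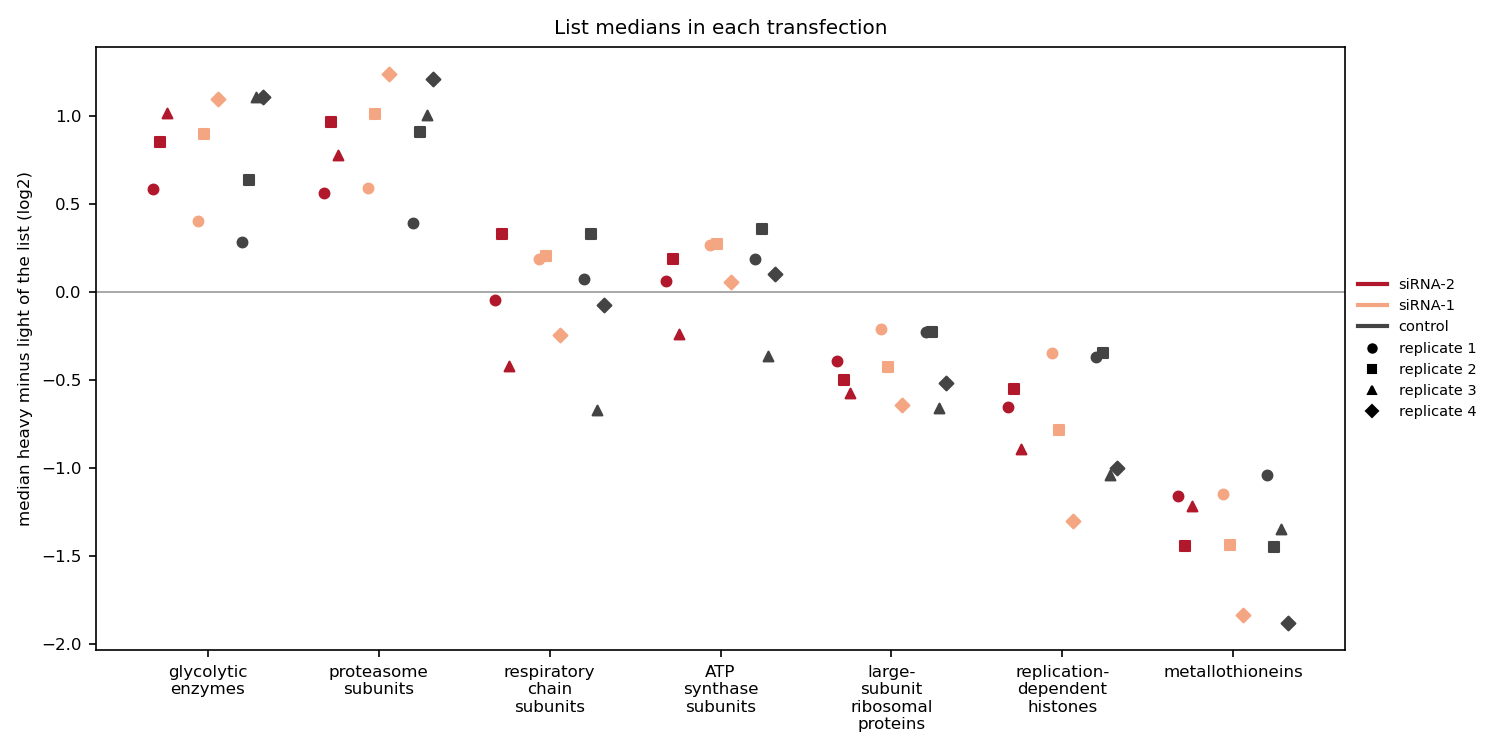
Median heavy minus light difference (log2, vertical axis) of 7 gene lists in each of the 10 transfections, with siRNA-2 in red, siRNA-1 in orange and control in dark grey and replicate numbers by marker. The medians of the respiratory chain and ATP synthase subunits lie on both sides of 0, with replicate 3 lowest in siRNA-2 and control cells, and the medians of the other lists keep their sign in all transfections.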

How the data were processed

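RNA of heavy and light polysomes was hybridized to Clariom S arrays. The authors normalized the arrays with RMA (oligo) and deposited 1 log2 value per probe set, with R 3.5.3 and limma 3.38.3 listed in the processing notes of the submitters. The sources do not state whether both fractions went through 1 normalization. Groups and replicate numbers came from the sample titles. Of 27189 probe sets, 5741 without a transcript cluster identifier were left out. Of the 21448 clusters tested, 17709 had 1 symbol in the platform annotation and 3739 none.

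With R 4.3.3 and limma 3.58.1 (lmFit, eBayes), heavy minus light differences of the 10 transfections were fitted with 1 mean per siRNA group and a shared spread (7 residual and 7.67 prior degrees of freedom), and p-values were adjusted by Benjamini-Hochberg over all clusters. An exact test on 3 pairs alone cannot go below p = 0.25. Deviations from the group means correlated between siRNA-2 and control transfections of the same number. The r was 0.34, 0.233 and 0.512 for numbers 1, 2 and 3, across genes. The main comparisons of siRNA groups did not pair these numbers, and only the fit with the replicate number as a block did. Between siRNA-2 and siRNA-1, r was 0.281 for number 1 and -0.13 for number 2. Alternatives were no pairing, the 3 siRNA-2 pairs alone, array weights, repeated quantile normalization, median centring, a minimum level of 5, a fold of 1.5, trended robust variances, each pair left out and number 1 left out. Named genes were the 15 largest called differences in each direction with 1 sign in all pairs, up to 4 members of each list with the lowest p, and genes named in the study; other genes were named after their values were seen. Members and lists were chosen with earlier results of these data known. Lists were described by counts and medians, without a test. Start sequences came from RefSeq (GRCh38.p14). The number of arrays limits the precision.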

Additional observations from a re-analysis of the deposited data

Results flagged for a closer look

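In 2 named genes every siRNA-2 pair moved one way and every pair of another group the other way. Only named genes were searched, and the share of all clusters with this pattern was not counted. Both genes were named for a low p within their list in these same siRNA-2 pairs. OR6C68, an olfactory receptor gene, had heavy minus light differences of -0.56, -0.29 and -0.34 in siRNA-2 cells, against 0.30, 0.10, 0.04 and 0.19 in control cells, and the difference of the means was -0.55 (SE 0.162, limma adjusted p = 1). KRTAP19-4, a keratin-associated protein gene, had -0.21, -0.59 and -0.54 in siRNA-2 cells, against 0.03, 0.37 and 0.15 in siRNA-1 cells, a difference of -0.63 (SE 0.234, limma adjusted p = 0.6). Neither passed the test of the difference, and both signals were low, at 3.33 to 3.89 and 3.68 to 4.40 over the 6 siRNA-2 arrays.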

How the results depend on the processing

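The total of 4724 calls was between 3263 and 5964 in the settings that kept all 3 pairs. A required fold of 1.5 left 1557 clusters higher in heavy polysomes and 1706 lower. Leaving out 1 pair gave 2077 to 3633 calls, 868 to 1851 higher and 1072 to 1782 lower, with fewer samples in the fit. Against control and siRNA-1 cells, 0 clusters passed in each setting but array weights against siRNA-1, where 3 did (the cause was not tested), and leaving out 1 pair gave 0 to 0. RPL35, not called in any setting, turned to 0.02 with repeated quantile normalization and was -0.18 to 0.03 with 1 siRNA-2 pair left out, the last without replicate 3 (the cause was not tested).

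Heavy and light arrays of 1 number did not deviate together from their group means in siRNA-2 cells (r of 0.0845, -0.00742 and 0.0514), so the labels' numbers are the only base of the pairing. Without the replicate block of heavy with light, 4748 clusters passed, 4411 of them also called in the paired fit. With the replicate number as a block on the differences, 0 passed against control and 0 against siRNA-1, and it changed no call of the genes named in the study. Over all settings, 330 to 1205 clusters had an unadjusted p under 0.05 against control and 897 to 2538 against siRNA-1. With the numbers 1 to 3 only, 0 passed against control, and with numbers 1 and 2 only, chosen after seeing the data, 0 against siRNA-1.

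Of 168 called named genes, 5 lost their call without pairing, 9 at 1.5-fold, 10, 25 and 23 without replicate 1, 2 or 3, 8 without number 1 in every group, and 0 in the other settings. Of 222 list medians under alternatives, 202 moved by less than the spread of the 3 pairs and 8 changed sign, in lists with medians near 0. Median centring and repeated quantile normalization moved the median of all clusters by 0.025 and 0.021. Counts per list under pairs left out were added after seeing the data. Protein length was not run, as no protein table was used here.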

Other observations

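Genes of some small proteins, in lists added after values were seen, were lower in heavy polysomes or not called. These lists, and the tubulins below, had median signals between 7 and 9, where 16.4% of all clusters were lower and 19.8% higher. Of 19 genes with SMIM symbols, for small integral membrane proteins, 8 were lower and 0 higher, and SMIM8 had 6.52, 6.24 and 6.01 in heavy polysomes, against 7.97, 8.33 and 7.69 in light polysomes (difference -1.75, SE 0.212, limma adjusted p = 0.000217). Of 5 prefoldin subunits, which pass actin and tubulin to their chaperonin, 3 were lower and 0 higher, with PFDN4 at -1.71 (SE 0.207). Of 9 COMMD genes, 4 were lower and 0 higher, with COMMD8 at -1.12 (SE 0.199), and 2 were lower without replicate 1, 2 or 3. Of 19 tubulins, 7 were higher and 1, TUBE1 (-0.81), lower. Without replicate 2, 2 tubulins were higher, and without replicate 3, 0 were.

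Immediate early genes were mostly not called, with 6 of 35 higher (17.1%), 2 lower (5.71%) and 27 not passing. Their median signal was 7.12, and of all clusters between 7 and 9, 19.8% were higher and 16.4% lower. DUSP4, a phosphatase of MAP kinases, had 9.59, 9.89 and 9.94 in heavy polysomes, against 8.96, 8.87 and 9.09 in light polysomes (difference 0.84, SE 0.156, limma adjusted p = 0.00186). EGR1 was lower (-0.63), with its call lost without pairing and without replicate 2 or 3, and 2 higher and 0 lower were left without replicate 2 or 3. IER5 (0.95) and NR4A2 (0.76) lost theirs without replicate 2 and replicate 3.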
